A study of Homo sapiens with 3 samples.

Results

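Netrins are secreted guidance cues related to laminins, and the genes described here are 2 of them, NTN1 and NTN4, with 6 receptors, UNC5A, UNC5B, UNC5C, UNC5D, DCC and NEO1. The 8 genes were taken by name from the 22439 gene symbols to which probes of the array could be matched, and they carry 10 probes, 1 each for 6 genes and 2 each for UNC5C and UNC5D. The set was selected by signals on these same 3 arrays, so every value below is a description and carries no test.

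RNA came from A549, an established line of human lung adenocarcinoma, kept for 48 h with 0.1% DMSO as the vehicle control, with 60 μg/mL cordycepin, or with 100 μg/mL cordyceps. Cordycepin is an adenosine analog that lacks the 3′ hydroxyl group. What is known of the cordyceps condition comes from its labels, which state neither the kind of preparation nor how much cordycepin it held, so the concentrations of the treatments are not matched. The labels give all 3 cultures the same medium, DMEM with 10% fetal bovine serum, penicillin and streptomycin, zinc sulfate at 16.7 μM, nicotinamide at 10 mM and troglitazone at 10 μM. Total RNA of each condition was labelled with Cy3 and hybridised to 1 Agilent array (n = 1 per condition), and a difference between arrays therefore has no replicate error.

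UNC5 proteins and DCC are called dependence receptors: bound by netrin-1 they signal to the cytoskeleton and favour survival, whereas the unbound receptors can be cleaved by caspases and promote cell death. NTN1 encodes netrin-1, the best known ligand, which attracts axons through DCC and repels them when an UNC5 receptor takes part. NTN4 encodes netrin-4, a basement membrane netrin that binds laminin. NEO1 encodes neogenin, a relative of DCC that also binds the repulsive guidance molecules. In tumours, loss of a dependence receptor or gain of its ligand has been studied as a way in which cells escape death.

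A probe counted as detected where its spot was well above background on the array. Signals given below are processed signals of single spots, unscaled, with the spot error estimated by the image software, which covers technical error of the spot only. Ratios were taken after scaling each array to its 75th percentile, which was 260.1 for the control, 224.3 for cordycepin and 260.2 for cordyceps. Signals were compared between arrays and not between probes, and the sums over marker lists serve only to compare arrays. In bulk RNA, fewer cells that express a gene and less RNA of it per cell cannot be told apart.

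Between 24505 and 28494 probes were detected per array, and the 3 arrays shared 1 slide and 1 scan. On the cordyceps array, 11.2% of the spots in 1 corner (after row 240 and column 82) had a local background flagged as outlying, against 0% there on the other arrays. The corner holds 18.6% of all probes, and the first UNC5D probe and the only DCC probe lie in it. The 5 epithelial keratin and adhesion markers and the 5 measured genes of the A549 line were detected on every array. The summed signal of the A549 genes was 590848 in the control, 369657 with cordycepin and 412612 with cordyceps. For the epithelial markers it was 289122.5, 324904 and 206372 in that order. The endothelial markers and those of alveolar type 2 cells were detected for at most 2 of 4 genes on an array. Of the fibroblast markers, COL1A1 alone was detected, on every array. Of the 3 immune markers, CD14 and PTPRC were detected on every array, and the summed signal of the list was 3492 in the control, 1637 with cordycepin and 2274 with cordyceps. All 4 neuronal markers, RBFOX3, TUBB3, SYT1 and MAP2, were detected on every array, and their summed signal was 22643 in the control, 10964 with cordycepin and 23047 with cordyceps. In the control CD14 alone gave 3387 of the immune sum, and RBFOX3 and TUBB3 gave 12832 and 8893 of the neuronal sum. With cordycepin the sums of the A549, fibroblast and alveolar type 2 lists were lower too, and those of the epithelial and endothelial lists were higher. A lower sum is thus not particular to the neuronal list. Several of the netrin receptors are best known from neurons, and the part of the lower neuronal sum with cordycepin in the values below was not tested.

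Promoter sequences are shown for UNC5A and NEO1, receptors that passed 2-fold in opposite directions with cordycepin, so that the reader can see the region from which each transcript starts. Each is the 250 bases before the transcription start on the plus strand of GRCh38.p14, from the RefSeq promoter table, which held 5 of the 8 genes. Capitals mark GC boxes (GGGCGG on either strand).
UNC5A, chr5:176810309-176810558: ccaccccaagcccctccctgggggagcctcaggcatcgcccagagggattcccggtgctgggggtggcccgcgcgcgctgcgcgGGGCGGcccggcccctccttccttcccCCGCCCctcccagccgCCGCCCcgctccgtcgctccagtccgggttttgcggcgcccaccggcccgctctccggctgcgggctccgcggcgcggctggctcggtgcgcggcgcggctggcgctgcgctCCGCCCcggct
NEO1, chr15:73051652-73051901: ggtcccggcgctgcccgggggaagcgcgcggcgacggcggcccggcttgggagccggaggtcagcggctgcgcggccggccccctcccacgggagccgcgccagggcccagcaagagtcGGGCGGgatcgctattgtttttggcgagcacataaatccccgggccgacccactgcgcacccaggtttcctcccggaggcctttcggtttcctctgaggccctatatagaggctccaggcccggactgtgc

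The UNC5A window held 36 CpG dinucleotides and 81.2% G and C, with 4 GC boxes, and the NEO1 window held 28 CpG dinucleotides and 71.6% G and C, with 1 GC box. Over all 35116 promoters of the table the medians were 11 CpG dinucleotides and 58.0% G and C, and 42.6% held a GC box. Neither window held TATAAA, found in 10.7% of promoters, the AP-1 motif TGANTCA, found in 6.57%, the C/EBP-ATF motif TGATGNAA, found in 3.14%, or the E-box CACGTG, found in 6.34%. Both strands were searched, and no match was allowed to differ from the letters given.

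With cordycepin, 6 of the 8 genes were detected on at least 1 of the 2 arrays. NTN1, UNC5B and UNC5A passed 2-fold upwards against the control, UNC5D and NEO1 passed it downwards, and NTN4 lay between. With cordyceps, UNC5B was the only 1 of 5 detected genes that passed 2-fold, upwards, and none was 2-fold lower. Over all genes compared for cordycepin, 5.95% of 15917 passed 2-fold upwards and 3.57% downwards. For cordyceps, 4.19% of 15602 genes passed it upwards and 3.15% downwards. These shares are given for scale only, since the genes were chosen by the same ratios. The median log2 ratio of the 5 members measured on both arrays was -0.85 with cordycepin and -0.06 with cordyceps, beside -0.05 and -0.11 over all genes measured.

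**Figure D1:**
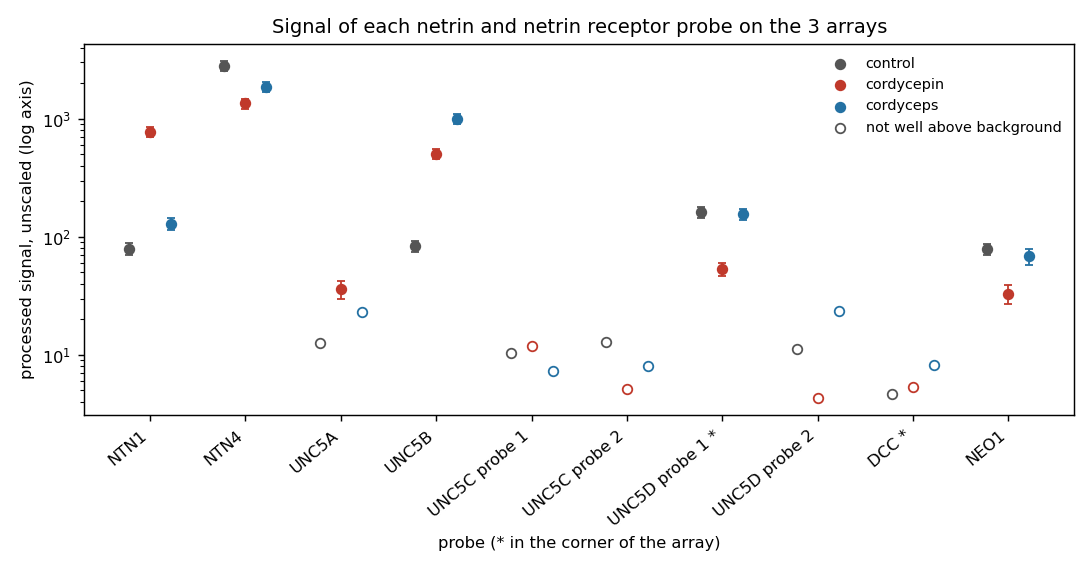
Processed signal (unscaled, log axis) of each of the 10 probes on the control, cordycepin and cordyceps arrays; filled points are detected and carry the spot error of the image software, and open points are not well above background. NTN1 is high on the cordycepin array alone, UNC5B is high on both treated arrays, and UNC5C and DCC are open on all 3.

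Of the ligands, NTN1 gave a signal of 79.4 ± 8.96 in the control, 774 ± 77.6 with cordycepin and 129 ± 14.8 with cordyceps (± spot error). The cordycepin array stood apart, and the probe was detected on all 3. Before any background correction the spot's median brightness was 159, 946 and 220.5 in the same order, over a local background of 46 to 49. The scaled signal was 11.3-fold higher with cordycepin than in the control, a log2 ratio of 3.50 ± 0.22. With cordyceps the log2 ratio was 0.69 ± 0.23, a 1.62-fold difference. Counting NTN1 itself, 7 of 14600 genes measured were as high with cordycepin, and 790 of 13889, or 5.69%, with cordyceps. These ranks are descriptive, since the genes were chosen by the same ratios. The probes on the array around the NTN1 spot had a median log2 ratio of 0.02 with cordycepin and -0.15 with cordyceps.

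NTN4 gave a signal of 2815 ± 282 in the control, 1350 ± 135 with cordycepin and 1870 ± 187 with cordyceps. Both treated arrays were below the control. The signal was 1.80-fold lower with cordycepin, a log2 ratio of -0.85 ± 0.20, and 1.51-fold lower with cordyceps, a log2 ratio of -0.59 ± 0.20. NTN4 was the gene just short of the 2-fold threshold with cordycepin, and NEO1, at 2.06-fold lower, was the gene just past it.

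Of the UNC5 receptors, UNC5B, the member of the family best known from blood vessels, gave a signal of 83.6 ± 9.54 in the control, 506 ± 50.8 with cordycepin and 1000.3 ± 100.4 with cordyceps. Its signal was 7.02-fold higher with cordycepin, a log2 ratio of 2.81 ± 0.22, and 12.0-fold higher with cordyceps, a log2 ratio of 3.58 ± 0.22. Counting UNC5B itself, 24 of 14600 genes were as high with cordycepin and 16 of 13889 with cordyceps. Outside the corner of the array, 2 of 11335 genes were as high with cordyceps, again counting UNC5B. A high rank follows in part from the choice of the genes by these ratios. The spot lies near an edge of the array, in row 4, and its local background was flagged as outlying on the control and cordyceps arrays and not on the cordycepin array. That local background was 37 on each of the 3 arrays, against a spot brightness of 143.5, 576 and 1024 on the control, cordycepin and cordyceps arrays. The probes around it had a median log2 ratio of 0.12 with cordycepin and -0.10 with cordyceps.

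UNC5A, a receptor studied mainly in neurons, was detected on the cordycepin array alone, with a signal of 36.0 ± 6.06. Its signal was 12.7 ± 4.69 on the control array and 23.1 ± 8.06 on the cordyceps array, where it was not well above background. Against the lowest signal detected on the control array, UNC5A was at least 2.24-fold higher with cordycepin. It did not pass 2-fold with median scaling, with no scaling or with normexp, or where detection on both arrays was asked for. No ratio to the control can be given for cordyceps.

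UNC5D, which also binds FLRT proteins in neuronal migration, gave a signal of 162 ± 16.7 in the control, 53.6 ± 7.06 with cordycepin and 155 ± 17.1 with cordyceps by its first probe. The control and cordyceps arrays were alike within the spot error and the cordycepin array was lower. The signal was 2.60-fold lower with cordycepin, a log2 ratio of -1.38 ± 0.24, and the log2 ratio with cordyceps was -0.06 ± 0.22. This probe lies in the corner, where its own local background was not flagged and the probes around it had a median log2 ratio of -0.09 with cordyceps. The second UNC5D probe, outside the corner, was not well above background on any array, so the lower signal with cordycepin rests on 1 probe.

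UNC5C, a receptor lost in some colorectal cancers, was not well above background on any array by either probe, with signals between 5.12 and 12.9. DCC, the receptor first described as deleted in colorectal cancer, was likewise not well above background, with signals of 4.69, 5.34 and 8.29 on the control, cordycepin and cordyceps arrays. A transcript too scarce for these probes, or one that they do not match, would give the same readings.

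NEO1 gave a signal of 78.7 ± 9.05 in the control, 33.0 ± 5.93 with cordycepin and 68.5 ± 10.4 with cordyceps. The cordycepin array was the lowest and the other arrays lay within their errors of each other. The signal was 2.06-fold lower with cordycepin, a log2 ratio of -1.04 ± 0.31, and 1.15-fold lower with cordyceps, a log2 ratio of -0.20 ± 0.27. With the array scaled over detected probes, or with another background correction, NEO1 was less than 2-fold lower with cordycepin.

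**Figure D2:**
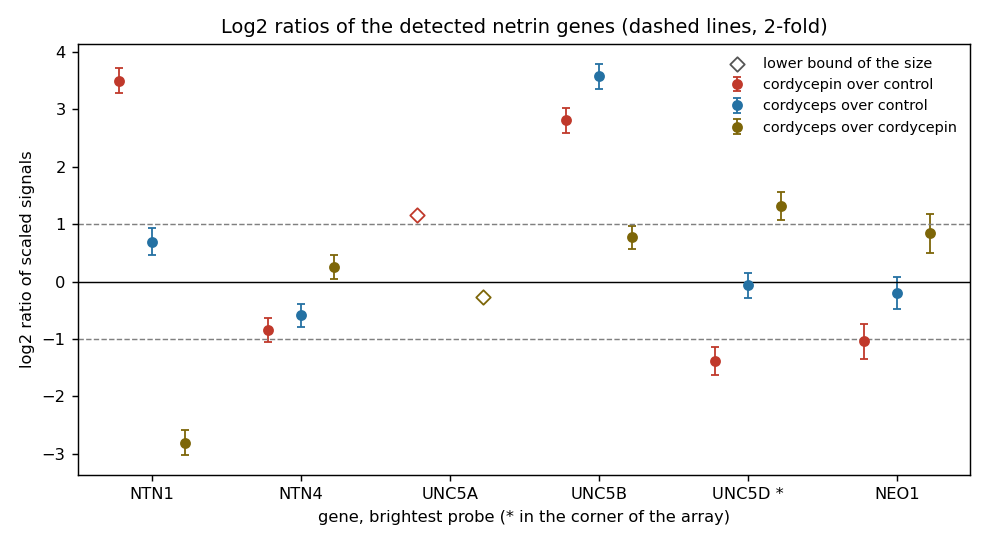
Log2 ratio of scaled signals for the 6 detected genes, for cordycepin over control, cordyceps over control and cordyceps over cordycepin; bars are the spot errors of both arrays combined, open diamonds are bounds, the asterisk marks the probe in the corner, and dashed lines mark 2-fold. Against the control, UNC5B is past 2-fold with both treatments, NTN1 with cordycepin alone, and UNC5D and NEO1 are past 2-fold downwards with cordycepin.

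The error of a single probe was also read from 2368 genes with a pair of probes outside the corner, both detected on all 3 arrays. For 1 probe, the spread of the log2 ratio was taken as a robust SD, scaled from the median absolute deviation between paired probes. It was 0.27 for cordycepin over control and 0.21 for cordyceps over control. Among the 1804 genes whose dimmer probe stayed under a signal of 1000 it was 0.31 and 0.24. Against this spread, the NTN1 ratio with cordycepin and both UNC5B ratios were larger than the cordycepin ratios of NEO1 and UNC5D and the UNC5A bound. The UNC5D probe lies in the corner and UNC5A was not detected in the control, so neither is of the kind paired here. Since the genes were chosen by these ratios, this describes their size and carries no test. In 5.997% of the probe pairs the ratios of cordycepin over control differed by 2-fold or more, and a robust SD does not describe such tails. This spread does not include the difference between cultures.

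**Figure D3:**
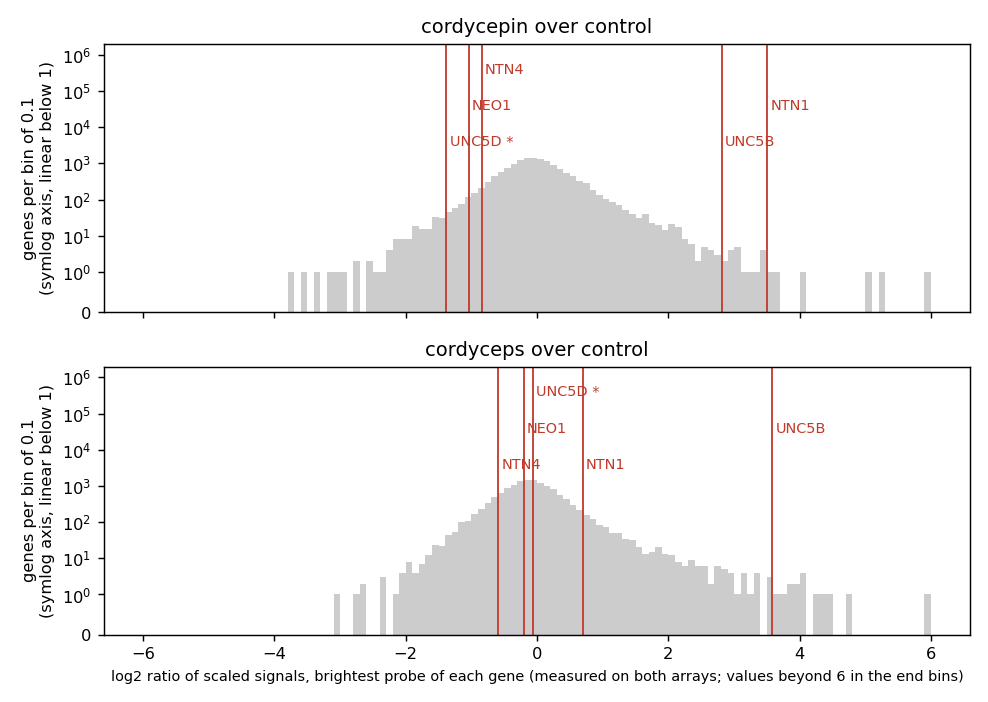
Number of genes (symlog axis) per bin of log2 ratio, measured on both arrays by the brightest probe, for cordycepin and cordyceps over control; vertical lines mark the netrin genes, and the asterisk marks the probe in the corner. UNC5B lies in the upper tail of both panels, and NTN1 lies in the upper tail with cordycepin and on the shoulder with cordyceps.

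Between the treatments, at unmatched concentrations, 6 of the 8 genes were detected on at least 1 array. UNC5D was 2.50-fold higher and NTN1 6.99-fold lower with cordyceps than with cordycepin. Over all 15482 genes compared, 5.57% passed 2-fold upwards and 7.75% downwards. UNC5B differed by a log2 ratio of 0.77 ± 0.20, or 1.70-fold, NEO1 by 0.84 ± 0.34 and NTN4 by 0.26 ± 0.20. UNC5A was at least 1.21-fold lower with cordyceps. The UNC5D difference is that of the probe in the corner. Scaling by the array median moved the median of all genes to 0.51 in this comparison, against -0.02 here, and then UNC5B and NEO1 also passed 2-fold.

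The genes whose pair of log2 ratios lay nearest to that of UNC5B, out of 11249 detected on all 3 arrays outside the corner, were CHAC1, ATF3, TNFRSF9, XDH and LAMP3, in that order. CHAC1, a glutathione-degrading enzyme of the amino acid stress response, was 8.22-fold higher with cordycepin and 7.95-fold higher with cordyceps, at a distance of 0.63 in log2 units. ATF3, a stress-induced transcription factor, was 3.97-fold and 8.78-fold higher. TNFRSF9, a receptor of the TNF family, was 4.15-fold and 7.74-fold higher. XDH, the xanthine dehydrogenase of purine breakdown, was 3.33-fold and 9.85-fold higher, and LAMP3, a lysosomal membrane protein, 4.80-fold and 5.98-fold. The distances of ATF3, TNFRSF9, XDH and LAMP3 ran from 0.93 to 1.14, so these genes are nearest without being close. The control signals of TNFRSF9 and LAMP3 were low, at 48.8 and 51.4. Nearness here is over 2 ratios that share the control array, with 1 array per condition.

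The other genes of the pathway were taken from 6 lists of 58 genes, of which 56 had a probe and 10 were read by a probe in the corner. With cordycepin 46 were detected on at least 1 of the 2 arrays, 3 passed 2-fold upwards and 5 downwards, with a median log2 ratio of -0.07, beside 5.95% and 3.57% of all genes. With cordyceps 46 were detected, 5 were higher and 4 lower, with a median of -0.14, beside 4.19% and 3.15% of all genes. Both medians were near those of all genes.

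Of the other netrin ligands, NTNG2, a membrane-anchored netrin-G, gave 4058 in the control, 1737 with cordycepin and 3489 with cordyceps, 2.01-fold lower with cordycepin. NTNG1, its paralog, was not well above background on the control and cordycepin arrays, at 4.98 and 5.47, and gave 124 on the cordyceps array, at least 6.65-fold higher than in the control. Its log2 ratio of 2.73 was 1.17 with normexp and 4.64 with no detection filter. A second NTNG1 probe gave 4.27, 6.34 and 79.9, at least 4.29-fold higher with cordyceps, and its local background on that array was flagged as outlying. Its remaining probe was not well above background on any array, and none of the 3 lies in the corner. Netrin-G proteins bind NGL proteins and not the DCC or UNC5 receptors.

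Of the other receptors for netrins, MCAM, a cell adhesion protein, gave 102.6 in the control, 180.5 with cordycepin and 143 with cordyceps, 2.04-fold higher with cordycepin. DSCAML1, listed here as a relative of the netrin receptor DSCAM, gave 402, 144 and 375 in that order, 2.41-fold lower with cordycepin. DSCAM itself was not well above background on any array by either of its 2 probes. MCAM and NTNG2 passed 2-fold in 9 of 12 alternatives and DSCAML1 in 11. Each has a single probe, detected on every array, so the alternatives for detection and for summing up probes could not move these ratios. Among the partners of these receptors, none passed 2-fold with cordycepin. FLRT1, a ligand of UNC5 proteins read in the corner, was 2.21-fold higher with cordyceps, a log2 ratio of 1.14 that was 0.48 with normexp. Of 130 probes measured around its spot, 31.5% were also 2-fold higher with cordyceps, beside 4.19% of all genes. The part of these surroundings in the FLRT1 ratio was not tested.

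All 7 genes that carry the death signal of the unbound receptors were detected, and none passed 2-fold in any comparison. Over all genes, 5.95% passed it upwards and 3.57% downwards with cordycepin, and 4.19% and 3.15% with cordyceps. Between the treatments these shares were 5.57% and 7.75%. At such shares, none in a list of 7 genes is no result about the list. DAPK1, the kinase that binds UNC5B, gave 102.9 in the control, 73.6 with cordycepin and 58.3 with cordyceps. CASP9, an initiator caspase, gave 1166, 1163 and 1087 in that order. Log2 ratios of the 7 genes ran from -0.46 to 0.55 with cordycepin and from -0.82 to 0.47 with cordyceps. These are transcript signals and do not measure protein activity.

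Of the genes that link bound receptors to the cytoskeleton, 16 of 17 were measured. TIAM1, an exchange factor for Rac, gave 114.6 in the control, 312 with cordycepin and 84.8 with cordyceps, 3.16-fold higher with cordycepin, and its spot lies in column 1 of the array, with a local background flagged as outlying on the cordyceps array. MYO10, the motor that carries DCC into filopodia, gave 304, 89.1 and 123, 2.94-fold lower with cordycepin and 2.47-fold lower with cordyceps, by a probe in the corner. With cordyceps, the kinase gene FYN was 2.25-fold higher, against 1.76-fold with cordycepin. ABLIM3, an actin-binding protein, was 2.79-fold higher with cordyceps and 1.95-fold with cordycepin, and its dimmer probe was 3.39-fold and 4.12-fold higher.

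**Figure D4:**
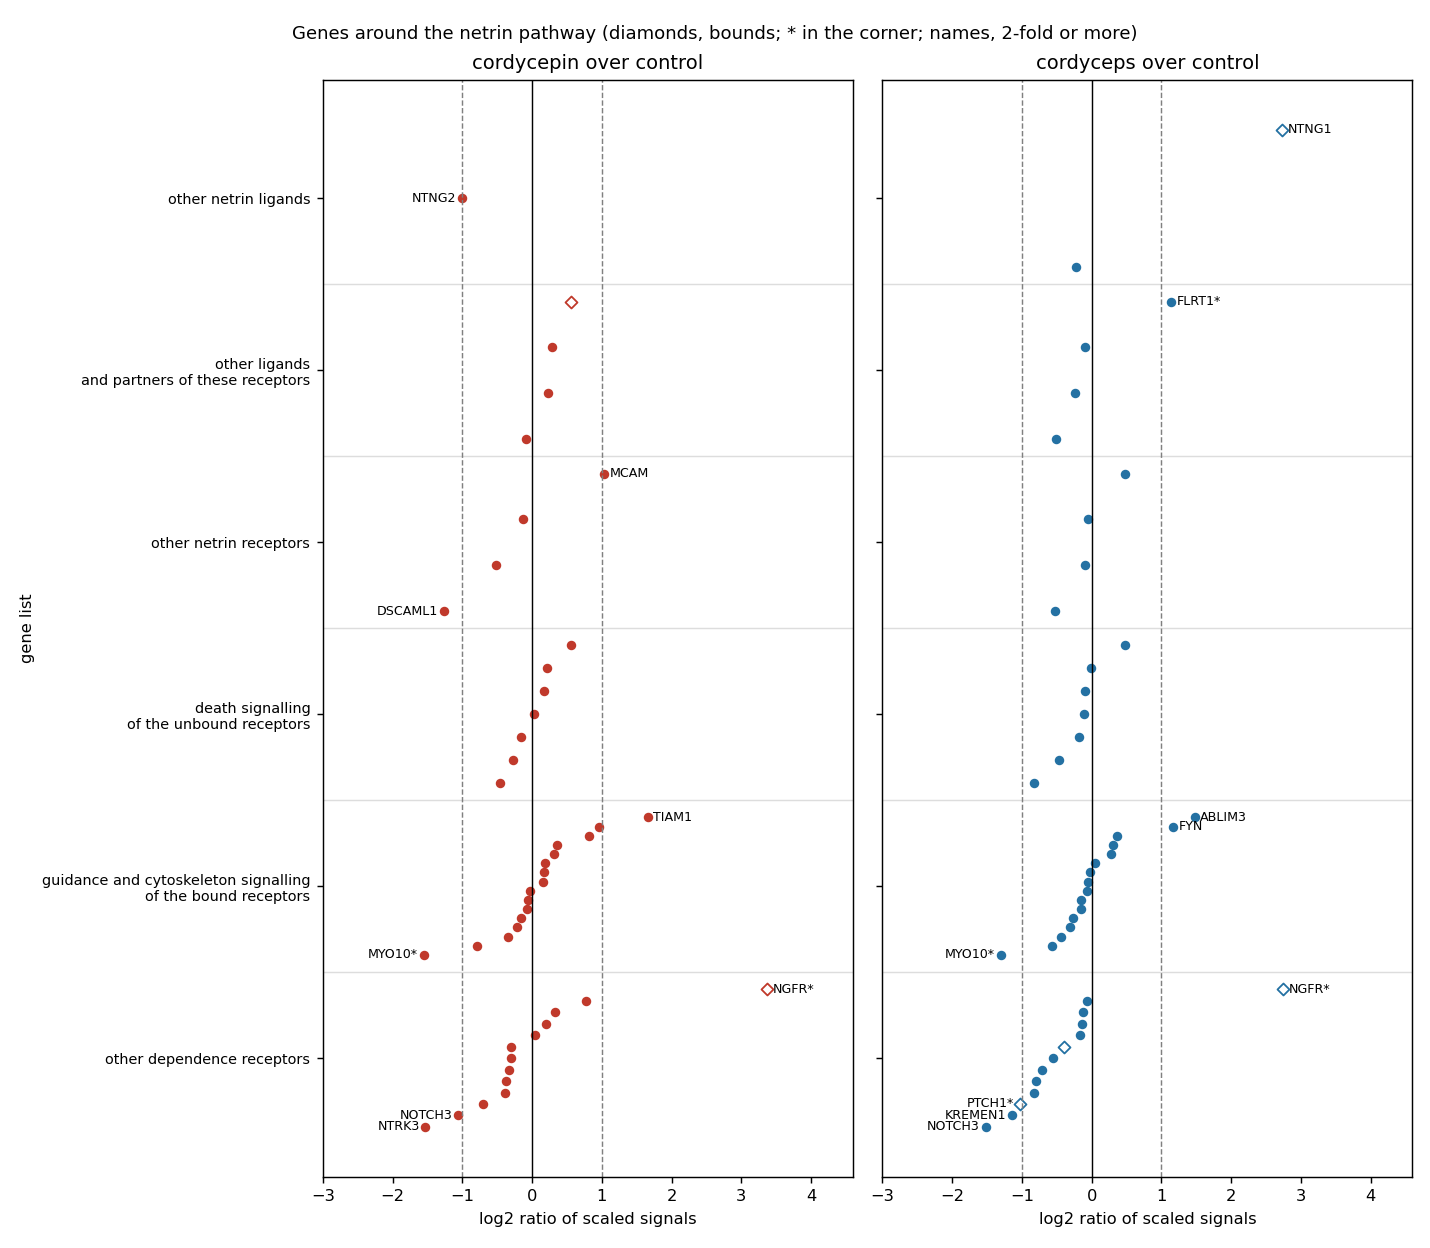
Log2 ratio of each gene with a ratio or bound of the 6 pathway lists with cordycepin (left) and cordyceps (right) over control, by list; diamonds are bounds, asterisks mark probes in the corner, dashed lines mark 2-fold, and genes at or past 2-fold are named. All 7 genes of death signalling lie between the dashed lines in both panels, as most genes of the array do, and NGFR lies farthest to the right with cordycepin.

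Of the other dependence receptors, NGFR, the low-affinity neurotrophin receptor, was not well above background on the control array, at 17.3, and gave 167 with cordycepin and 125 with cordyceps. It was at least 10.4-fold higher with cordycepin and at least 6.71-fold higher with cordyceps, by 1 probe in the corner. With normexp background correction the log2 ratios were 1.68 and 1.21, against 3.38 and 2.75 here. NTRK3, the receptor of neurotrophin-3, was 2.89-fold lower with cordycepin by its brightest probe and 4.68-fold and 5.04-fold lower by its other probes. With cordyceps its brightest probe had a log2 ratio of -0.14, which was 0.13 under median scaling, and its other probes were 1.59-fold lower. NOTCH3 gave 9037, 3728 and 3153 on the control, cordycepin and cordyceps arrays, 2.09-fold and 2.87-fold lower with the treatments.

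KREMEN1, a receptor for the Wnt antagonist Dickkopf, was 2.20-fold lower with cordyceps by its brightest probe, a call lost with median scaling and with normexp (log2 ratios of -0.87 and -0.98), and its other 2 probes gave no ratio there. With cordycepin its brightest probe had a log2 ratio of -0.30, whereas 1 of the others was at least 2.06-fold higher. PTCH1, the Hedgehog receptor, was with cordyceps at least 2.04-fold below the control, by a probe in the corner whose local background was flagged as outlying there. It passed 2-fold in 7 of 11 alternatives, with a log2 ratio of -0.39 under normexp. RET, the receptor of GDNF ligands, was 2.25-fold lower with cordyceps than with cordycepin and did not pass 2-fold against the control with either. Its cordyceps signal of 47.8 was not well above background and was used as it stood, so this ratio is no lower bound. The log2 ratio of -1.17 was -0.56 with normexp.

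The 3 annotated genes on each side of each member were 48, of which 12 had a probe. With cordycepin 8 of them were detected and 1 passed 2-fold, upwards, as did 5.95% of all genes. This was UNC5B-AS1, a non-coding RNA annotated as antisense to UNC5B, which gave 5.35 in the control, 68.5 with cordycepin and 24.4 with cordyceps and was detected with cordycepin alone, at least 4.26-fold higher than in the control. It was at least 2.30-fold lower with cordyceps than with cordycepin, whereas UNC5B itself was 1.70-fold higher. With cordyceps none of 7 detected neighbours passed 2-fold against the control, beside 4.19% of all genes upwards and 3.15% downwards. BMPR1B, a BMP receptor beside UNC5C that is read in the corner, was 2.08-fold higher with cordyceps than with cordycepin.

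**Figure D5:**
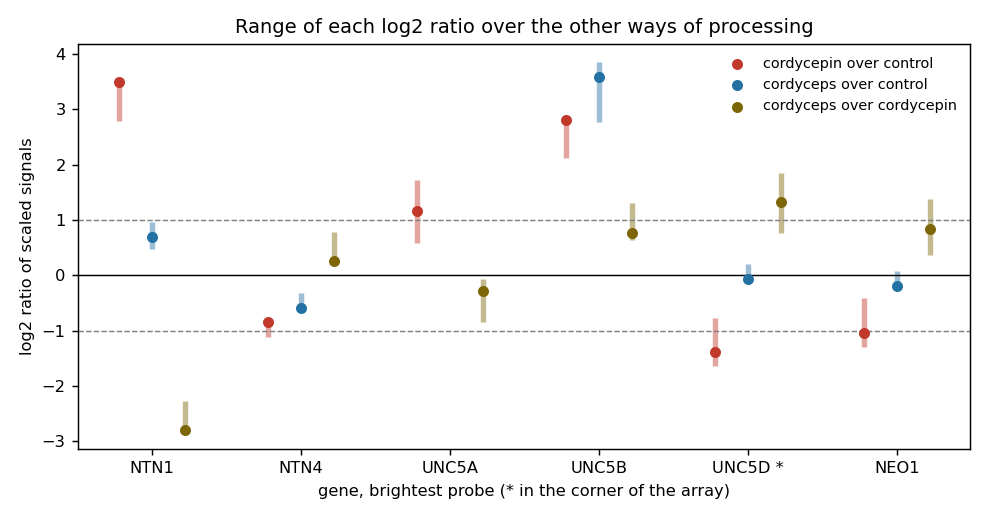
Log2 ratios of the detected netrin genes as reported (points) with the range over the other ways of processing (bars), for cordycepin and cordyceps over control and for cordyceps over cordycepin; dashed lines mark 2-fold and the asterisk the gene read in the corner. Against the control, UNC5B with both treatments and NTN1 with cordycepin stay beyond 2-fold over their whole range, and the bars of NEO1, UNC5D, UNC5A and NTN4 cross the 2-fold line with cordycepin.

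Over the other ways of processing, the NTN1 log2 ratio with cordycepin ran from 2.79 to 3.55. The UNC5B ratio ran from 2.13 to 2.86 with cordycepin and from 2.77 to 3.85 with cordyceps. UNC5D with cordycepin ran from -1.65 to -0.78, NEO1 from -1.30 to -0.41, NTN4 from -1.11 to -0.78, and UNC5A from 0.58 to 1.72. With cordyceps the small ratios of NEO1 and UNC5D, -0.20 and -0.06, turned to 0.07 and 0.21 under median scaling.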

How the data were processed

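One array was hybridised per condition and no test between conditions was run. The deposited files are 1 scanner output per array and a value table with the same intensity values. Per the file headers, Feature Extraction 11.5.1.1 made the intensity values in 1 colour, with background subtraction and spatial detrending inside each array, and they were not scaled between arrays. The methods name Cy5 for cordycepin RNA and GeneSpring, whereas the files hold a single Cy3 channel per array, so ratios were taken between arrays.

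Here, control spots and outlier spots (63 to 106 of 60901 non-control spots per array) were left out, and log2 processed signals were averaged over a probe's spots. The array's 75th percentile over the 58191 probes with a value on all arrays was then subtracted. No spot was saturated. Of 58201 probes, 31104 were named through RefSeq accessions of GRCh38.p14. The array design uses another build, and the table served for names, neighbours and promoters only. A gene was read by its brightest probe. A ratio was measured where both arrays detected the probe. Where 1 did, it was a bound, taken against the lowest detected signal of the dim array or, if higher, the dim probe's own (18.65 on the control, 21.83 on the cordycepin and 34.48 on the cordyceps array). A call was 2-fold or more.

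The members and gene lists were chosen with earlier results of these data known. The text names all members, pathway genes and neighbours past 2-fold, and the 5 genes nearest to UNC5B by Euclidean distance between log2 ratios; death-signalling genes within 2-fold and the cell type markers were named after their values were seen. Alternatives were other scalings (median, detected probes, quantile, none), normexp with an offset of 50, other detection rules, outlier spots kept, the deposited value table, the median over a gene's probes, 1.5-fold and 3-fold thresholds and leaving out the corner. Calling was checked on simulated data, with changes well past the threshold planted in probes detected on all arrays. That check therefore covers neither ratios near 2-fold, nor bounds, nor the corner. Python 3.11.15 with numpy 2.4.6 and pandas 2.3.3, were used, and limma 3.58.1 in R 4.3.3 gave normexp. The number of arrays limits the precision. Some values of the pathway lists are not reported here.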

Additional observations from a re-analysis of the deposited data

How the results depend on the processing

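Members past 2-fold were counted again under 14 alternatives. With cordycepin, the 3 genes higher than the control became 2, without UNC5A, with median scaling, no scaling, normexp, detection on both arrays and at 3-fold. The 2 genes lower than the control became 1 with the 75th percentile over detected probes (UNC5D), 1 without the corner (NEO1), 0 with normexp and 0 at 3-fold, and NTN4 joined them with median scaling, with no scaling and at 1.5-fold. With cordyceps, 1.5-fold gave 2 higher (NTN1 and UNC5B) and 1 lower (NTN4) in place of 1 and 0. Between the treatments, the 1 gene higher with cordyceps became 3 with median scaling (UNC5B, UNC5D and NEO1), 3 at 1.5-fold, 2 with quantile normalization, 2 with no scaling, and 0 with normexp, without the corner or at 3-fold. Of 199 member ratios under the alternatives, 196 kept their sign, and the exceptions were those of NEO1 and UNC5D with cordyceps. Of 704 ratios over all named pathway genes and members, 695 kept their sign, and those of the pathway genes were added after seeing the data. Other detection rules and the median over probes leave the ratio of a gene with 1 probe detected on both arrays unchanged. Both counts therefore include values that could not change. Median scaling moved the median of all genes to -0.32 with cordycepin and 0.16 with cordyceps. The UNC5A bound was 0.58 with normexp and 1.72 with no detection filter. The low signals of UNC5A and NEO1, 12.7 to 78.7, limit what their ratios can show, and normexp with its offset draws such ratios towards 0. The same limit holds for the control signals of NTN1, 79.4, and UNC5B, 83.6, and for UNC5D with cordycepin, 53.6. With normexp the NTN1 log2 ratio with cordycepin went from 3.50 to 2.79, and that of UNC5B with cordyceps from 3.58 to 2.77. No paired analysis was possible because each condition has 1 array.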
